A study of Homo sapiens with 3 samples.

Results

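The genes described are the receptors, the ligands and the feedback inhibitor of the epidermal growth factor receptor (EGFR) family in A549 cells depleted of the RNA helicase DDX24. The 10 genes were chosen by name, from the gene_name column of the count tables: the receptors EGFR, ERBB2 and ERBB3, the ligands AREG, EREG, HBEGF, TGFA, BTC and EPGN, and the inhibitor ERRFI1. They are 10 of 58735 genes counted. Of the 10, 9 had a mean of at least 1 CPM (count per 1000000 counts of the scaled library) and EPGN did not. A549 is an established human lung adenocarcinoma cell line, grown here in F12K medium with 10% serum. RNA was sequenced from 3 conditions with 1 library each: control cells (Control-sh, called the control) and cells with either of 2 shRNAs that target DDX24 (DDX24-sh1 and DDX24-sh2, called sh1 and sh2). By the study's methods the lines were stably transduced with lentiviral pLKO.1 and selected in puromycin, with an empty vector as the control, whereas a legend names a control shRNA. All 3 conditions thus share the parental line, the vector backbone and the selection, and whether a line came from 1 clone was not stated.

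The EGFR family consists of receptor tyrosine kinases that pair with one another when a ligand binds. EGFR binds the ligands studied here, ERBB2 binds none and serves as a partner, and ERBB3 has a weak kinase and binds neuregulins. The ligands are made as membrane-bound precursors and are released by ADAM proteases. ERRFI1, also called MIG6, is induced by signalling and binds the kinase domain of EGFR to shut it off. In lung adenocarcinoma, EGFR is a common oncogenic driver and a drug target.

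The ligand genes EPGN, EREG, AREG and BTC lie together on chromosome 4 of GRCh38, within 486 kb from 74308473 to 74794686. The gaps between them were 49.8 kb from EPGN to EREG, 56.4 kb from EREG to AREG and 290 kb from AREG to BTC. Just 2 other genes were annotated in that stretch, the antisense genes AC021180.1, with 0 counts, and AC239584.1, with 1, 2 and 2 counts. RefSeq promoter windows (GRCh38.p14, 250 bases before to 50 after the annotated start) were found for 9 of the 10 members, all but ERBB3, in 11 windows since EGFR and TGFA have more than one start. A TATA-like motif chosen after the windows were seen, TATANA on the gene's own strand beginning 40 to 20 bases before the start, was present in the windows of EREG, AREG, EPGN and ERRFI1 and in an inner window of EGFR, 5 of 11 windows against 3.46% of all 35116 windows. The cyclic AMP response element TGACGTCA, searched on both strands, was in the AREG window alone and in 1.85% of all windows. The AP-1 motif TGANTCA was in 2 of 11 windows, those of ERBB2 and the inner start of EGFR (7.71% of all), the C/EBP-ATF motif TGATGNAA in 0 (3.62% of all), and the GC box GGGCGG in 6 (45.0% of all). A match is a run of letters in a window and not a site of binding. The 4 windows printed, with the CRE and TATA-like matches in capitals, are those of a pair of neighbouring ligands whose ratios differed (AREG, chr4:74444886-74445185, plus strand, and EREG, chr4:74364895-74365194, plus strand), of the inhibitor (ERRFI1, chr1:8026260-8026559, minus strand) and of a ligand that was higher in both shRNA libraries (TGFA, first window, chr2:70553777-70554076, minus strand).
AREG: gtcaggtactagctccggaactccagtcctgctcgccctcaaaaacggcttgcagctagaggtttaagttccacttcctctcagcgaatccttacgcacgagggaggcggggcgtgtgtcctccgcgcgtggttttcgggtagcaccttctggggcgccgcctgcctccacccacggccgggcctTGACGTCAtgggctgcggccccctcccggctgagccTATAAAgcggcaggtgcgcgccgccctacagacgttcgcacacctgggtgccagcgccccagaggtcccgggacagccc
EREG: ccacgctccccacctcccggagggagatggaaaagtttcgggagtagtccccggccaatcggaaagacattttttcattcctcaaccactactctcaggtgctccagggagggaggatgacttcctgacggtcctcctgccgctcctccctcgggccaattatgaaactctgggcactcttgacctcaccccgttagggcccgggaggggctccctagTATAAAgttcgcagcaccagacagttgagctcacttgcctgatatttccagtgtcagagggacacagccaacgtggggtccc
ERRFI1: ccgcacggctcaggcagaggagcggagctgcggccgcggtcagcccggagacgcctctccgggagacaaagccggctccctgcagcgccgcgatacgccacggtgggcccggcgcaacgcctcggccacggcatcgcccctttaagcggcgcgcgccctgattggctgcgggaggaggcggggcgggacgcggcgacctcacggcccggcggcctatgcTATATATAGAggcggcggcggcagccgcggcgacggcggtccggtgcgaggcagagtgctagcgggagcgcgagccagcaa
TGFA: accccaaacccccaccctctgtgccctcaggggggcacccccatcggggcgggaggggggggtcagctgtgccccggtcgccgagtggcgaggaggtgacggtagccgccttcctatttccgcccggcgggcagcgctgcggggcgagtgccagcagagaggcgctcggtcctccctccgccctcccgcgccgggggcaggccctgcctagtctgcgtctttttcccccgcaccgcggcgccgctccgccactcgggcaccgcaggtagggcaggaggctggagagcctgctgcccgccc
The AREG and EREG windows both held TATAAA, beginning 29 and 32 bases before the start. In AREG the CRE began 65 bases before the start. ERRFI1 had overlapping TATATA and TATAGA matches beginning 31 to 27 bases before the start. The TGFA window held neither motif, had 4 GC boxes and was 75.3% G and C, against a median of 58.7% over all windows.

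The libraries held 17218884 to 18337471 counts, and mitochondrial genes took 4.36% of them in the control, 5.13% in sh1 and 7.04% in sh2. DDX24 itself had 2010 counts in the control, 637 in sh1 and 765 in sh2, which is 29.6% and 36.0% of the control level after scaling. The shRNA names of the deposited FPKM tables are exchanged relative to those of the counts. This was checked over genes with at least 50 counts in a library. FPKM times gene length over count stayed within 1% of a constant for 5.23% of such genes in sh1 with the names as given. With the names exchanged it did so for 100%. The names sh1 and sh2 therefore mean the libraries whose counts carry those names, and any order between the 2 shRNAs rests on that choice. Of 6 epithelial markers, all reached 1 CPM, and their summed level was 1612 to 1661 RPKM (the CPM divided by gene length in kilobases). Most of that sum came from KRT7, KRT8 and KRT18 (579, 551 and 451 RPKM in the control), whereas EPCAM had only 32, 29 and 29 counts. The lung lineage markers NKX2-1 and SFTPA1 had 0 counts in every library, as did CDKN2A, which is deleted in A549, and the leukocyte markers PTPRC and CD3E, whereas the myeloid markers CD14 (139, 108 and 75 counts in the control, sh1 and sh2) and ITGAM (52, 40 and 65) were counted. Summed levels were 0.431 to 0.667 RPKM for lung lineage and at most 0.153 for endothelial markers, and fibroblast markers summed to 1.53 to 2.54 RPKM. Epithelial and fibroblast markers averaging 1 CPM or more and beyond 2-fold in either library were KRT19 (1001, 2251 and 2728), CDH1 (538, 358 and 261) and LUM (27, 80 and 68). The part of these differences between libraries in the results was not tested.

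EGFR, ERRFI1, AREG, ERBB3 and, by less, ERBB2 were lower and TGFA was higher in both shRNA libraries than in the control. HBEGF differed by less than counting error. With 1 library per condition there was no replicate and no test. Ratios to the control are log2 ratios of scaled CPM, and each interval is the exact 95% binomial interval from 2 counts, which covers counting error and not the spread between cultures. Both ratios share the control library, so a lower value in both is not a repeat. Because RNA came from whole cultures, fewer expressing cells and less RNA per cell cannot be told apart. Of the 9 members at 1 CPM or more, 0 were at least 2-fold higher in sh1 and 2 at least 2-fold lower (ERRFI1 and AREG), against 2.32% and 2.27% of all 13984 genes at that level. In sh2, 1 was at least 2-fold higher (TGFA) and 2 at least 2-fold lower (ERRFI1 and EGFR), against 2.89% and 3.07% of all genes. Since the members were chosen with earlier results of these data known, these counts do not test the family. Counting intervals lay below 0 for 5 members and above 0 for 1 in sh1, where they did so for 29.5% and 23.6% of all genes, and for 6 and 2 in sh2, with 30.8% and 23.6% of all genes. The median log2 ratio of the 9 members was -0.12 in sh1 and -0.31 in sh2, beside -0.02 and -0.03 over all genes. The members lay on both sides of the control, so the medians do not describe single genes.

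**Figure D1:**
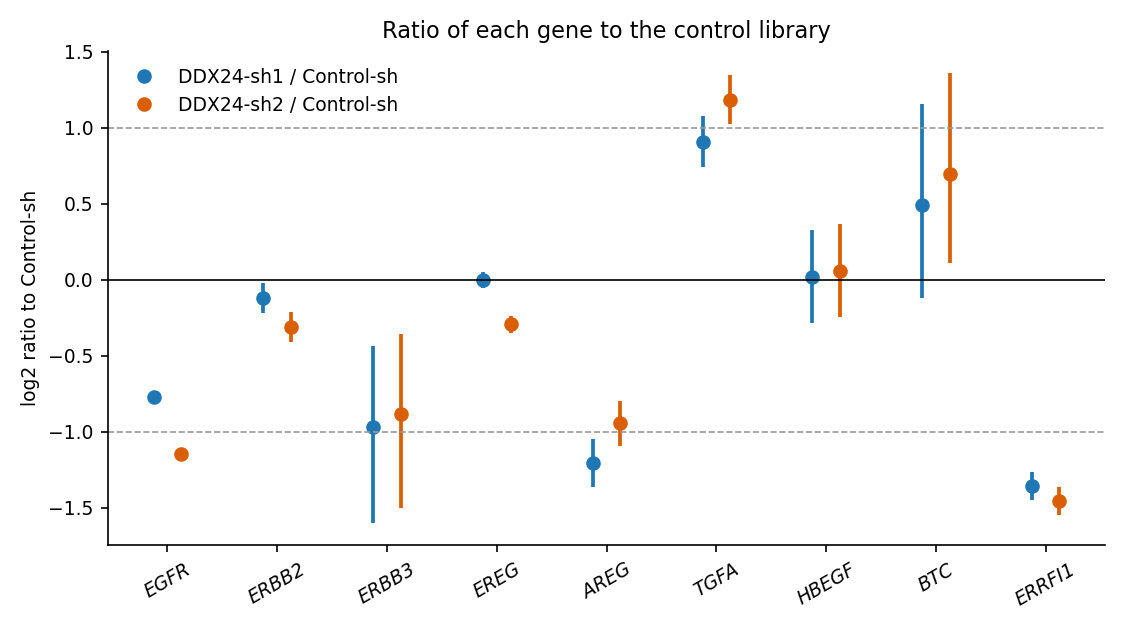
Log2 ratio of each of the 9 members to the control (vertical axis) in sh1 (blue) and sh2 (orange), with vertical lines for the exact 95% counting interval and dashed lines at a 2-fold change. ERRFI1, EGFR, AREG, ERBB3 and, less far, ERBB2 sit below 0 in both libraries, TGFA sits above, and HBEGF lies near 0. EPGN is not drawn.

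EGFR (ENSG00000146648, chromosome 7 from 55019021 to 55211628, plus strand) had the most counts of all members in each library. It had 16717 counts in the control, 10516 in sh1 and 8004 in sh2. The control was the highest of the 3 and sh2 the lowest. In sh1, EGFR was at 58.7% of the control, a log2 ratio of -0.77 (interval -0.80 to -0.73). In sh2 the level was 45.3% of the control, a log2 ratio of -1.14 (interval -1.18 to -1.10). Among all 13984 genes, 4.46% had a lower ratio than EGFR in sh1 and 2.15% in sh2. EGFR was among the abundant transcripts in every library: 96.7% of genes had a lower RPKM in the control, 93.8% in sh1 and 91.9% in sh2. Its antisense gene EGFR-AS1, which overlaps it on the opposite strand, had 8, 6 and 5 counts.

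ERBB2 (ENSG00000141736, chromosome 17 from 39687914 to 39730426, plus strand), the ligandless partner receptor, was closer to the control. Its counts were 1747 in the control, 1722 in sh1 and 1491 in sh2. The control and sh1 lay close together and sh2 was lower. The log2 ratio was -0.12 in sh1 (interval -0.22 to -0.02) and -0.31 in sh2 (interval -0.41 to -0.21). ERBB2 overlaps MIEN1 (666, 721 and 745 counts) and PGAP3 (146, 213 and 157 counts) on the opposite strand, the latter over 8884 bases, and the sources used here do not say whether counting used strand. ERBB3 (ENSG00000065361, chromosome 12 from 56076799 to 56103505, plus strand), the neuregulin receptor, was barely counted, with 75 counts in the control, 40 in sh1 and 42 in sh2. The shRNA libraries both lay near 50 percent of the control. Intervals were over 1 log2 unit wide, from -1.60 to -0.43 around -0.97 in sh1 and from -1.50 to -0.35 around -0.89 in sh2. The remaining receptor of the family, ERBB4, which is no member, had 0 counts in every library, which allows up to 0.176 CPM.

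ERRFI1 (ENSG00000116285, chromosome 1 from 8004404 to 8026308, minus strand), the feedback inhibitor of EGFR, had the lowest ratio of the 9 members in both libraries. It had 3280 counts in the control, 1373 in sh1 and 1265 in sh2. Both shRNA libraries were far below the control and close to each other. They held 39.1% and 36.5% of the control level, that is log2 ratios of -1.36 in sh1 (interval -1.45 to -1.26) and -1.45 in sh2 (interval -1.55 to -1.36). Just 0.880% of all genes had a lower ratio than ERRFI1 in sh1 and 1.07% in sh2. An antisense gene, AL034417.4, overlaps 909 bases of ERRFI1 and had 9, 16 and 25 counts. In RPKM, the ratio of EGFR to its inhibitor was 1.70 in the control, 2.56 in sh1 and 2.12 in sh2. The receptor was thus the more abundant transcript of the pair in every library.

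Amphiregulin, encoded by AREG (ENSG00000109321, chromosome 4 from 74445134 to 74455009, plus strand), binds EGFR with low affinity. AREG had 1063 counts in the control, 494 in sh1 and 583 in sh2. Both shRNA libraries were near 50 percent of the control or below it. The log2 ratio was -1.20 (interval -1.36 to -1.05) in sh1 and -0.94 (interval -1.10 to -0.80) in sh2, so AREG was past 2-fold in the former and just short of it in the latter. Epiregulin, encoded by the neighbouring gene EREG (ENSG00000124882, chromosome 4 from 74365143 to 74388751, plus strand), also activates ERBB4. EREG had 5539 counts in the control, 5922 in sh1 and 4781 in sh2. It did not differ from the control beyond counting error in sh1, with a log2 ratio of -0.0034 (interval -0.06 to 0.05), and was -0.29 (interval -0.35 to -0.24) in sh2. The EREG intervals lay wholly above those of AREG in each library. The genes are neighbours on the same strand.

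Transforming growth factor alpha, encoded by TGFA (ENSG00000163235, chromosome 2 from 70447280 to 70554193, minus strand), is a high-affinity ligand of EGFR and was higher in both shRNA libraries. TGFA had 446 counts in the control, 898 in sh1 and 1074 in sh2. Both shRNA libraries were more than 2-fold above the control count. After scaling, TGFA was 1.88-fold higher in sh1, a log2 ratio of 0.91 (interval 0.74 to 1.08), and 2.27-fold higher in sh2, a log2 ratio of 1.18 (interval 1.03 to 1.35). Higher ratios than that of TGFA were found for 3.13% of all genes in sh1 and 1.82% in sh2.

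Betacellulin (BTC, ENSG00000174808, chromosome 4 from 74744759 to 74794686, minus strand), a ligand of EGFR and ERBB4, had 36 counts in the control, 55 in sh1 and 63 in sh2. Both shRNA counts were above the control, at a depth that left the size poorly defined. The log2 ratio was 0.49 (interval -0.12 to 1.16) in sh1, not distinguishable from 0, and 0.70 (interval 0.11 to 1.36) in sh2. HBEGF (ENSG00000113070, chromosome 5 from 140332843 to 140346631, minus strand), the heparin-binding ligand of EGFR and ERBB4, had 174 counts in the control, 189 in sh1 and 192 in sh2. No difference was detectable at this depth, with a log2 ratio of 0.02 (interval -0.29 to 0.32) in sh1 and 0.06 (interval -0.24 to 0.37) in sh2. Epigen, encoded by EPGN (ENSG00000182585, chromosome 4 from 74308473 to 74315307, plus strand), had 0, 2 and 0 counts. No ratio is given for EPGN, since every library was under 3 counts, equal to 0.164 to 0.176 CPM.

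**Figure D2:**
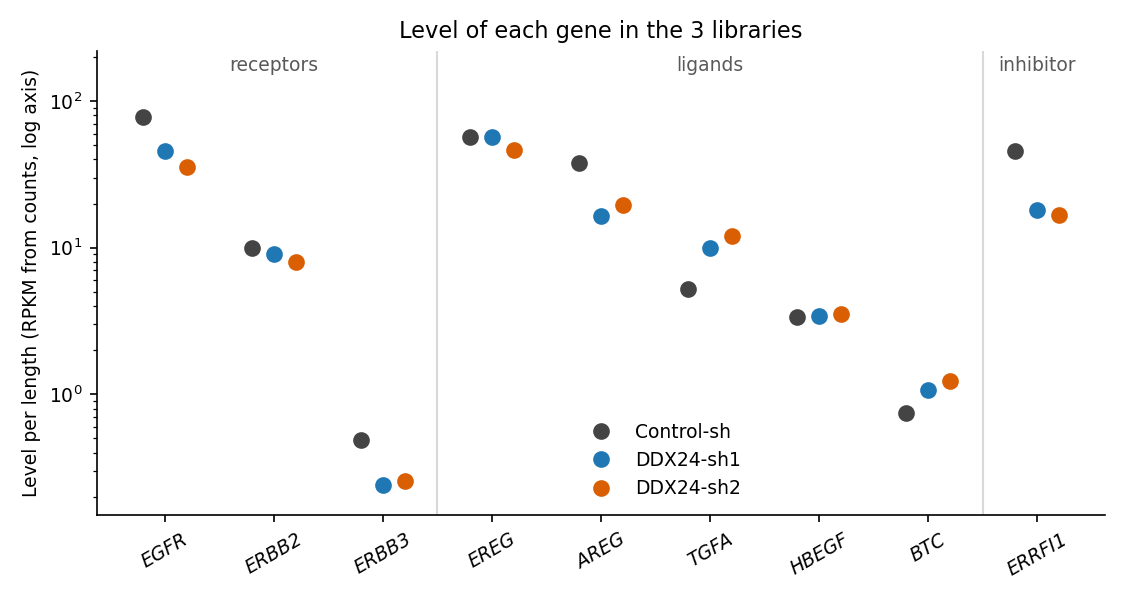
Level per length of the 9 members (RPKM computed from the counts, log axis) in the control (grey), sh1 (blue) and sh2 (orange), 1 library each. EGFR lies at 78.2 RPKM in the control and at 35.4 in sh2, where EREG is above it, while TGFA lies at 5.27, 9.89 and 12.0 RPKM. EPGN, with 0, 2 and 0 counts, is not drawn.

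Per length, EGFR led the family in the control with 78.2 RPKM, followed by EREG with 56.8, ERRFI1 with 45.9, AREG with 37.8, ERBB2 with 9.92, TGFA with 5.27, HBEGF with 3.38, BTC with 0.749 and ERBB3 with 0.486 RPKM. Neighbours in this order differed beyond counting error, BTC and ERBB3 only narrowly, with an interval of 0.0080 to 1.22 for their log2 ratio. In both shRNA libraries EREG was first and EGFR second. EREG stood at 56.6 RPKM in sh1 and 46.3 in sh2, and EGFR at 45.9 and 35.4. TGFA passed ERBB2 in sh2, at 12.0 RPKM and a log2 difference of 0.58 (interval 0.47 to 0.70). In sh1 the levels of TGFA (9.89 RPKM) and ERBB2 (9.12 RPKM) could not be told apart, nor could those of ERRFI1 (17.9 RPKM) and AREG (16.4 RPKM). Lengths are those in the deposited tables. For EGFR, EREG and ERBB2 they were 12521, 5717 and 10321 bases, whereas the transcripts searched for copies had 9821, 4619 and 4792. The intervals do not cover this. Orders and shares between genes, that of TGFA and ERBB2 among them, rest on the deposited lengths, and other lengths were not tried.

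The share of AREG among the ligand transcripts was lower and that of TGFA higher in both shRNA libraries. Summed over the 6 ligands, the level was 104 RPKM in the control, 87.5 in sh1 and 82.7 in sh2, a log2 ratio of -0.25 and -0.33. AREG supplied 36.4% of that sum in the control, 18.7% in sh1 and 23.7% in sh2. The share of TGFA was 5.07% in the control, 11.3% in sh1 and 14.5% in sh2. EREG was the most abundant ligand transcript with 54.6%, 64.7% and 56.0%. AREG was thus 7.18 times as abundant as TGFA per length in the control and 1.66 and 1.63 times as abundant in the shRNA libraries. On the receptor side the sum was 88.6, 55.3 and 43.7 RPKM, a log2 ratio of -0.68 and -1.02 to the control. EGFR made up 88.3% of it in the control, 83.1% in sh1 and 81.1% in sh2. The ratio of EGFR to ERBB2 per length was 7.89 in the control, 5.03 in sh1 and 4.42 in sh2.

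**Figure D3:**
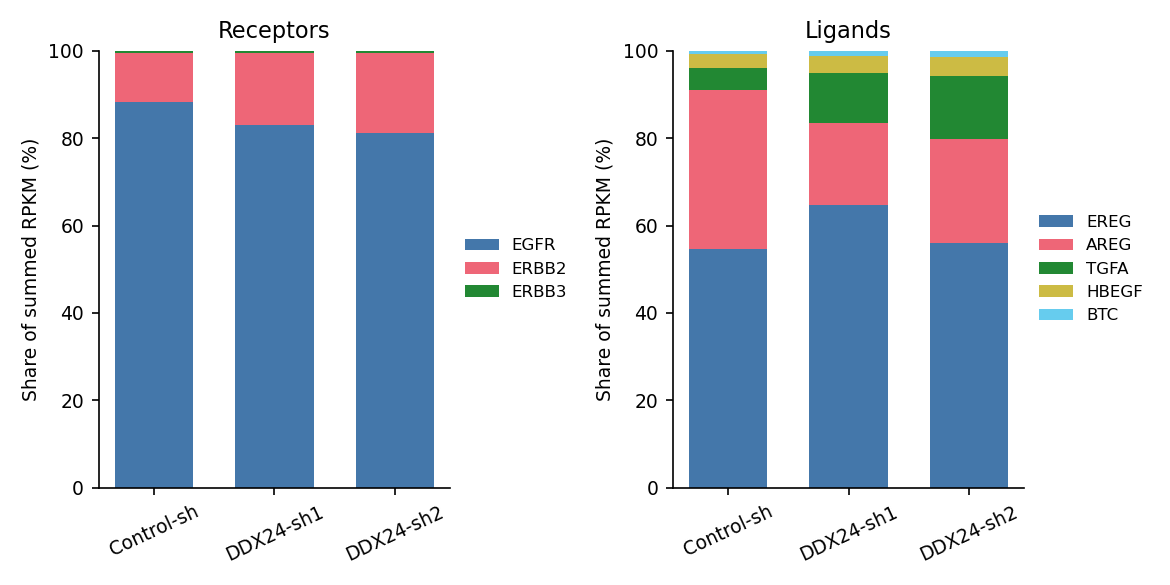
Share of each gene in the summed RPKM of the receptors (left) and of the ligands (right), in percent, for each library. In the ligand bars, AREG takes 36.4% of the control and 18.7% and 23.7% of the shRNA libraries, and TGFA takes 5.07%, 11.3% and 14.5%.

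The 2 shRNA libraries were also set against each other, which leaves the shared control out. No member differed 2-fold between them, at thresholds passed upward by 1.30% and downward by 1.01% of all genes. Counting intervals of sh2 over sh1 lay below 0 for 3 members and above 0 for 2, where they did so for 23.8% and 21.0% of all genes. The 3 were EGFR, at -0.37 (interval -0.42 to -0.33), EREG, at -0.29 (interval -0.35 to -0.23), and ERBB2, at -0.19 (interval -0.29 to -0.09). TGFA was 0.28 higher (interval 0.15 to 0.41) and AREG 0.26 higher (interval 0.08 to 0.43) on the log2 scale in sh2. ERRFI1 did not differ between the shRNA libraries beyond counting error, at -0.10 (interval -0.21 to 0.01), and neither did ERBB3, HBEGF or BTC. DDX24 itself was 0.28 higher in sh2 (interval 0.13 to 0.44).

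**Figure D4:**
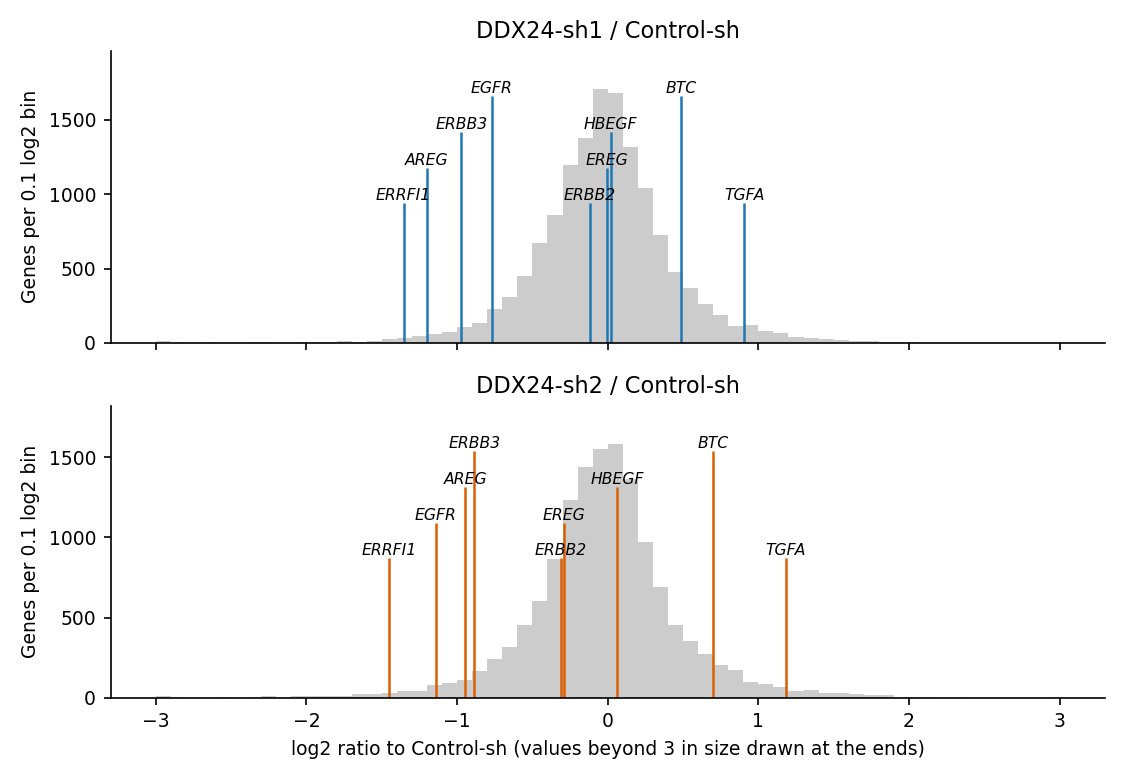
Number of genes per bin of log2 ratio (grey bars, 13984 genes averaging 1 CPM or more) for sh1 (top) and sh2 (bottom) over the control, with vertical lines at the members. The height of a line has no meaning. ERRFI1 lies in the lower tail of both panels and TGFA in the upper tail.

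With 11102 genes compared, some may lie close to a member without any shared control, which was not tested. The nearest genes to EGFR in pattern, by distance over both log2 ratios (3 libraries, 11102 genes averaging 5 CPM or more), were SNORC (distance 0.012), PER1 (0.022) and ZNF853 (0.025). For ERRFI1, the member whose smaller ratio was largest in size, they were VEGFA, the vascular endothelial growth factor (1191, 494 and 463 counts, distance 0.018), AHR, the aryl hydrocarbon receptor (909, 375 and 366 counts, distance 0.068), and ITGB1-DT (428, 183 and 157 counts, distance 0.073).

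Lists of genes around the receptors were counted at the same 2-fold limit, which 2.32% of all genes passed upward and 2.27% downward in sh1, and 2.89% and 3.07% in sh2. In lists of this size, a count of 0 or 1 is near that background. Among the other ligands of the family, which are not members, NRG1 had 6025, 6096 and 5529 counts, NRG2 104, 160 and 130, NRG4 14, 28 and 30, EGF 28, 26 and 23, and NRG3 had 0 in each library. None of the 4 at 1 CPM or more was 2-fold from the control. Of 9 genes of ligand release, all at 1 CPM or more, 1 was at least 2-fold higher in both libraries and 0 were lower. It was ADAM12, a sheddase that can release HBEGF, with 124, 334 and 283 counts (log2 ratios 1.32 and 1.10). ADAM17, the main sheddase of AREG and TGFA, had 1908, 1835 and 1653 counts, and ADAM10 had 5713, 5841 and 5156. The median over the list was 0.09 in sh1 and -0.02 in sh2. Of 15 receptor adaptors and effectors, 0 were 2-fold from the control (medians -0.01 and -0.02). The same held for 13 genes of the RAS-RAF-MEK-ERK cascade (medians 0.03 and -0.18) and for 18 genes of receptor turnover and restraint (medians -0.19 and -0.10), among them the ubiquitin ligases CBL (1428, 1312 and 1130 counts) and CBLB (801, 693 and 548 counts). The log2 ratios of those 18 genes ran from -0.70 to 0.54 in sh1 and from -0.63 to 0.34 in sh2, beside -1.36 and -1.45 for ERRFI1.

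Of 17 ERK feedback and output genes, none was 2-fold above the control in sh1 and 2 were 2-fold below it, and in sh2 the numbers were 1 and 2, beside 2.32% of all genes above and 2.27% below in sh1 and 2.89% and 3.07% in sh2. The medians of the list were -0.42 and -0.47, beside -0.02 and -0.03 over all genes. The list was written with earlier results of these data known. Of the 17 genes, 13 lay below the control and 4 above it in each shRNA library. Of all genes, 52.1% lay below the ratio of EREG in sh1 (-0.0034) and 60.2% below that of HBEGF in sh2 (0.06). Some of the 13 had an interval that held 0, such as SPRED2 in sh1 (-0.13 to 0.11). Above it in both were CCND1 (6717, 9286 and 10385 counts, log2 ratios 0.37 and 0.55), SPRY1 (16, 20 and 23 counts) and SPRY4 (275, 386 and 309 counts). Only CCND1 was so beyond counting error in both. The intervals of SPRY1 held 0 in each, and that of SPRY4 did in sh2 (-0.15 to 0.33). DUSP6 lay near the control (0.13 and -0.09). DUSP5, a nuclear ERK phosphatase, had 5413, 2363 and 1586 counts (log2 ratios -1.29 and -1.85), and EGR1, an immediate early factor, had 212, 35 and 66 counts (-2.63 and -1.73). FOS, another immediate early gene, had 44, 25 and 243 counts, so its shRNA libraries lay on either side of the control.

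**Figure D5:**
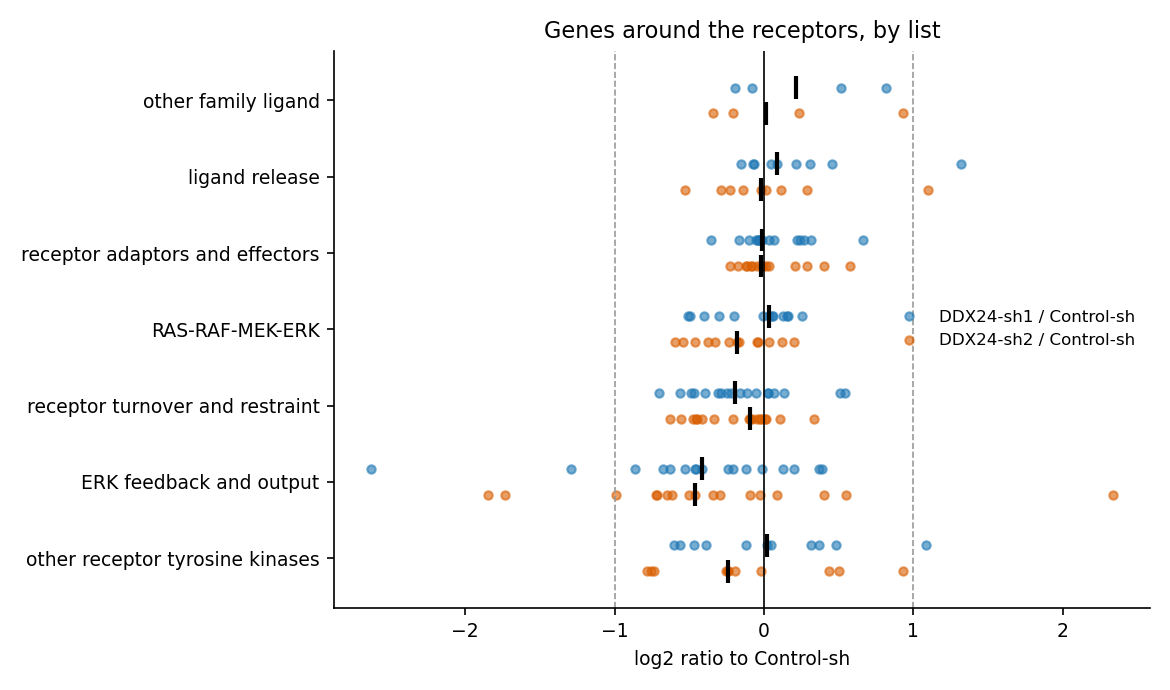
Log2 ratio to the control of each listed gene averaging 1 CPM or more, as points for sh1 (blue) and sh2 (orange), with black bars at the list medians and dashed lines at a 2-fold change. Medians of the ERK feedback list lie at -0.42 and -0.47, and those of the adaptor list at -0.01 and -0.02.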

How the data were processed

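RNA from 3 A549 libraries was analysed, 1 per condition. The deposited files held raw read counts for 58735 genes and, also from the authors, FPKM values, which divide counts by gene length and library size. The submitters' processing notes name Bowtie2 2.0.6, TopHat2 2.0.9, Cufflinks 2.1.1 and Cuffdiff 2.1.1 without roles, and the counter, the strand setting and the build are not given in the sources used here. Gene positions are those in the deposited tables, and the starts of the members lie at or near their GRCh38.p14 promoter windows where these were found. The transcripts searched for copies were those of GENCODE 29.

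Counts were scaled by TMM in edgeR 4.0.16 (R 4.3.3), with log2 CPM at a prior count of 2. RPKM was computed from counts, scaled library sizes and the tables' gene lengths. No count model was fitted, since no condition had a replicate. Exact conditional binomial 95% intervals came from scipy 1.17.1 in Python 3.11.15, and cover counting error only, since each is computed from 2 counts. The sources used here name no molecular identifiers, so duplicate reads may leave the intervals too narrow. At these depths the interval of EGFR was under 0.1 log2 units wide and that of BTC over 1. The intervals and calls were tested on simulated data, whose results are not given here. How they hold under the spread between cultures was not tested. Copies were searched with BLAST 2.17.0 (at least 90% identity over 100 bases) and covered at most 4.85% of a member's transcript. Figures used matplotlib 3.10.9.

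Named genes were the members, DDX24 and listed genes past 2-fold, described by role or above the control in a list mostly below it. The 3 nearest genes in pattern to EGFR and to the member whose smaller log2 ratio was largest in size were also named. The members and all gene lists were chosen with earlier results of these data known. The GC box and TATA-like motifs were added after the promoter windows were seen. Alternatives were DESeq2 1.42.0 size factors, total counts, a prior count of 0.5, the deposited FPKM (pseudocount 0.1) under both labellings, summed shRNA counts, other filters, 1.5-fold and protein-coding genes. A leukocyte marker and the sum of its list are not reported here.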

Additional observations from a re-analysis of the deposited data

How the results depend on the processing

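With 1 library per condition, no library could be left out within a condition, and the spread between cultures and an effect of the shRNA cannot be told apart. All 30 single-gene ratios stayed within their own counting intervals under DESeq2 size factors, total counts, a prior count of 0.5 and the deposited FPKM with the shRNA names exchanged. The sign turned for 1 of them, EREG in sh1 over the control, which lay between -0.0034 and 0.0097 in these settings. The FPKM are the counts rescaled with the shRNA names exchanged, so their results under either naming follow from the counts and are no separate check. With the FPKM names as given, the sign turned for 11 of the 30, that is for EREG in sh2 over the control and for all 10 ratios of sh2 over sh1. Among them, 7 had a counting interval that did not hold 0: EREG in sh2 over the control became 0.0097, and sh2 over sh1 became 0.38 for EGFR, 0.19 for ERBB2, -0.25 for AREG, 0.29 for EREG, -0.27 for TGFA and -0.27 for DDX24. Under those names 1 member was at least 2-fold higher in sh1 and 0 in sh2, and the share over all genes was not counted. At 1.5-fold, 1 of the 9 members was higher and 4 lower in sh1, beside 1062 and 1153 of all 13984 genes. In sh2, 2 members were higher and 4 lower at 1.5-fold, beside 1202 and 1330 of all genes. With both shRNA counts summed, 6 of 20 ratios left their counting intervals and none changed sign.

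Counts over all genes depended on filter and threshold. In sh1, the genes higher and lower numbered 1672 and 1880 without a filter, 69 and 137 at a mean of at least 10 CPM, and 1062 and 1153 at 1.5-fold. In sh2 they numbered 2172 and 1764, 77 and 197, and 1202 and 1330. Over the 4 alternatives tried, 5 of 48 list medians, all near 0 at first, changed sign. The largest shift was in the median of the other receptor tyrosine kinases in sh1, from 0.02 to -0.12 with every gene of at least 1 count. Depth limited ERBB3 and BTC most, and EPGN could not be compared. No paired analysis was possible because each condition had 1 library.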

Other observations

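Among 11 other receptor tyrosine kinases averaging 1 CPM or more, 1 was at least 2-fold higher in sh1, 0 were at least 2-fold lower there, and 0 passed 2-fold in sh2, counts near the 2.32%, 2.27%, 2.89% and 3.07% of all genes that passed upward and downward in sh1 and in sh2. The 1 gene was PDGFRA, with 10, 25 and 22 counts in the control, sh1 and sh2. IGF1R, the insulin-like growth factor receptor, had 6797, 5567 and 4254 counts (log2 ratios -0.39 and -0.76), and FGFR1, a fibroblast growth factor receptor, had 2643, 2048 and 1675 counts (-0.47 and -0.74). AXL, a receptor tied to resistance against EGFR inhibitors, had 4244, 4708 and 6351 counts (0.05 and 0.50). MET, the hepatocyte growth factor receptor, had 6281, 6814 and 6552 counts (0.02 and -0.02). These were described after their values were seen, and no difference between EGFR and these receptors was tested.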
